A study of Rattus rattus with 18 samples.

Results

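The subject is miR-210, measured through its 2 mature arms, miR-210-3p (rno-miR-210-3p in the files) and miR-210-5p (rno-miR-210-5p), which were taken from the arrays by their probe names. They are 2 of the 761 rat miRNAs on the array, each with 1 probe printed in 4 spots, and both were among the 532 miRNAs bright enough to be tested. The arrays came from 9 male Sprague-Dawley rats, 3 in each of 3 groups, which were sham surgery, transient middle cerebral artery occlusion (tMCAO), in which a filament closes the artery and is then withdrawn, and remote limb postconditioning (PostC). From each rat 1 array was made of the ischemic core and 1 of the surrounding tissue, called peri, which makes 6 groups and 18 arrays. The sources used here do not say whether the PostC rats also had tMCAO or how old the rats were. The paper gives several times of sacrifice for its transient model and does not say which applies to the array rats. The labels assign core to temporo-parietal cortex and peri to striatum and the paper's text does the reverse, so the regions are named core and peri without a tissue. Sham-operated rats have no infarct, so their core and peri are the matching pieces of tissue.

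miR-210 is the miRNA most regularly linked to low oxygen: its gene is a target of the hypoxia-inducible factors, and its transcript is folded into a hairpin from which the enzyme Dicer releases a duplex. The 3p arm is the one usually loaded into Argonaute and is known to repress genes of mitochondrial iron-sulfur cluster assembly and of respiration. The 5p arm is the partner strand of the duplex and is usually the less abundant one in cells. Every miRNA binds its targets mainly through its seed, the bases 2 to 8 from the 5′ end.

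The sequences that the probes were made to bind, as the array files give them, are shown because the arms are read by these letters alone. Capitals mark the seed, and miR-3574 is shown with them because its sequence returns in the results.
miR-210-3p: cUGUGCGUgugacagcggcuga
miR-210-5p: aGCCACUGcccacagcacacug
miR-3574: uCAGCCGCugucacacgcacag
Both arms are 22 bases long with a GC content of 63.6%, above the median GC content of 50% among tested targets. None of the other 760 probes on the array has the seed of either arm. The arms are 13 edits apart from each other, an edit being a base changed, added or removed. The nearest probes to miR-210-5p are miR-34c-3p and miR-3574, both 8 edits away, and the nearest to miR-210-3p are 11 probes at 9 edits, miR-124-5p among them. The target of miR-3574 is the reverse complement of miR-210-3p over its whole length of 22 bases, which is the sequence that would be read from the opposite strand of the same DNA. A complementary run of at least 18 bases to another probe's target is found for 12.1% of the 761 probes, and the median longest run is 9 bases. For miR-210-5p it is 11 bases.

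The arrays differed in brightness, with a median miRNA spot between 49.1 and 261 units. Detection was judged against the empty spots of each array, and the limit lay between 49.1 and 566 units. The number of miRNAs detected ran from 188 to 605 an array. The correlation across probes between 2 rats of a group and region was lowest in PostC core (0.831), so these 3 arrays were the least alike. The neuron miRNAs miR-124-3p, miR-9a-5p, miR-128-3p and miR-138-5p, used to check that the tissue is brain, were detected on all 18 arrays and never ranked below the percentile 90.4 of brightness. In homogenised tissue, fewer cells of a type and less RNA per cell cannot be told apart.

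miR-210-5p was detected on all 18 arrays and separated the groups most clearly in core, where it was lowest after tMCAO and highest in PostC. Its normalized log2 intensity in sham core was 11.45, 11.39 and 11.41 in rats 1, 2 and 3. In tMCAO core it was 9.68, 9.87 and 9.71. In PostC core it was 13.14, 12.01 and 12.47. No rat of 1 of these core groups overlapped a rat of another, and sham and tMCAO were tight (SD 0.03 and 0.10) whereas PostC was spread (SD 0.57). In peri the values were 11.41, 11.86 and 11.88 in sham, 9.92, 10.26 and 11.20 in tMCAO, and 11.90, 12.04 and 10.14 in PostC. Here tMCAO stayed under sham in all 3 rats, while PostC rat 3 lay 1 log2 unit or more below every sham rat and inside the tMCAO range.

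**Figure D1:**
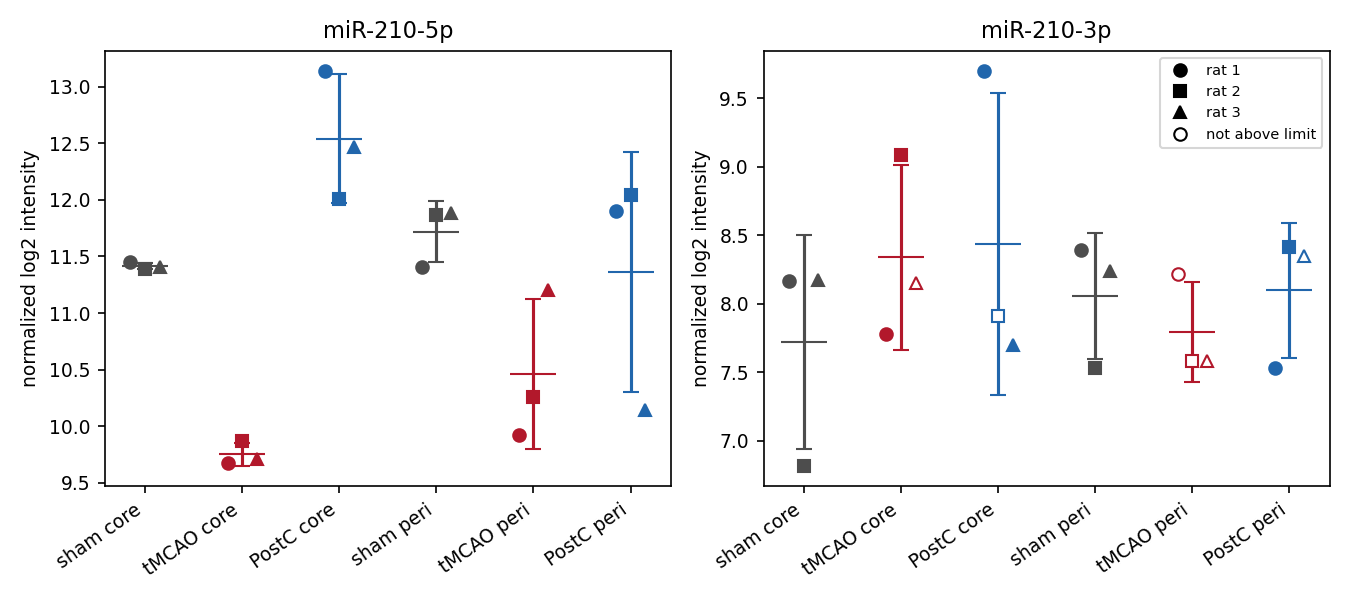
Normalized log2 intensity of miR-210-5p (left) and miR-210-3p (right) in the 6 groups; points are rats, open where the spot was not above the detection limit, and bars show the mean and SD (n = 3). For miR-210-5p the 3 core groups do not overlap, with means of 11.41, 9.75 and 12.54 in sham, tMCAO and PostC, whereas for miR-210-3p all neighbouring groups overlap; the scales of the 2 panels differ.

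Ordered by mean, miR-210-5p was highest in PostC core (12.54 ± 0.57, SD, n = 3), then sham peri (11.72 ± 0.27), sham core (11.41 ± 0.03), PostC peri (11.36 ± 1.06), tMCAO peri (10.46 ± 0.66) and tMCAO core (9.75 ± 0.10). Only the first and the last step of this order were free of overlap between neighbouring groups. Among the middle 4 groups, tMCAO peri lay under sham peri and sham core without overlap, whereas PostC peri overlapped sham peri, sham core and tMCAO peri, and both sham groups overlapped each other. In the authors' deposited table, on a linear scale, the means were 5707 ± 1204 units in PostC core, 3382 ± 609 in sham peri, 2591 ± 106 in sham core, 2967 ± 1736 in PostC peri, 1480 ± 733 in tMCAO peri and 780.1 ± 97.9 in tMCAO core (SD, n = 3). That table puts PostC peri above sham core, the reverse of the order of the log2 means for this overlapping pair.

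Between tMCAO and sham in core, miR-210-5p fell by 1.66 on the log2 scale (standard error 0.34, 95% interval -2.42 to -0.91, adjusted p = 0.0318 in limma), a level 3.17-fold lower. It stood at place 10 of the 532 miRNAs by p. Of all miRNAs tested, 3.38% passed this threshold (1.69% lower) and 41% did not overlap between the groups, so the absence of overlap alone does not set miR-210-5p apart. miR-210-5p is 1 of the 15 miRNAs that the study chose for a heat map on these same arrays, so its fall here is not independent evidence of the direction. The call was lost with plain background subtraction, with quantile normalization and with the replicate number of the rats as a block. It was also lost when any 1 of the 6 rats of these groups was left out (-1.72 to -1.62, adjusted p up to 0.124).

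PostC core lay above both other core groups. Against tMCAO, miR-210-5p rose by 2.79 (standard error 0.34, 95% interval 2.03 to 3.54, adjusted p = 0.00244 in limma), or 6.91-fold, the smallest p of the 532 miRNAs. In this comparison 2.26% of the miRNAs passed (2.07% higher) and 18.6% did not overlap. It passed with each of the 9 rats left out in turn (2.49 to 3.06), but not by the methods' t-test (adjusted p = 0.152), which called 0 miRNAs here. Against sham, the difference was 1.13 (standard error 0.34, 95% interval 0.37 to 1.88, adjusted p = 0.131), and the 3 PostC rats were all above the 3 sham rats, as 22% of the miRNAs did not overlap. No miRNA (0%) passed the adjusted threshold in that comparison by limma or by the methods' t-test, and 90 had an unadjusted p under 0.05 in limma. The 3 core comparisons share arrays in pairs, so they are not independent of each other. The tMCAO arrays in the rise to PostC are also among those from which the study chose miR-210-5p.

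In peri, no comparison of miR-210-5p passed. The difference was -1.26 between tMCAO and sham (standard error 0.50, adjusted p = 0.237 in limma), with no overlap, where 0.564% of the miRNAs passed and 31.6% did not overlap. It was -0.36 between PostC and sham (adjusted p = 0.991) and 0.90 between PostC and tMCAO (adjusted p = 0.725), with overlapping groups, and 0% of the miRNAs passed in either by limma or the methods' t-test (14 and 31 had an unadjusted p under 0.05 in limma). 1 rat decided the last: without PostC rat 3 the difference was 1.51 (adjusted p = 0.0273). Without that rat the tMCAO and sham difference also passed at the same size (-1.26, adjusted p = 0.0401), since the groups share an estimate of the spread.

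Averaged over core and peri of each rat, miR-210-5p was 11.57 ± 0.12 in sham, 10.11 ± 0.33 in tMCAO and 11.95 ± 0.61 in PostC (SD, n = 3 rats). It fell by 1.46 between sham and tMCAO (standard error 0.31, adjusted p = 0.0147 in limma), where 11.8% of the miRNAs passed (7.33% lower) and 41% did not overlap. It rose by 1.84 between tMCAO and PostC (standard error 0.31, adjusted p = 0.00799), where 5.64% passed (5.08% higher) and 26.1% did not overlap, but it did not pass by the methods' t-test (adjusted p = 0.148). PostC and sham differed by 0.38 (95% interval -0.31 to 1.07, adjusted p = 0.619) with overlapping rats. The fall did not pass without tMCAO rat 1 (-1.31, adjusted p = 0.0700) or tMCAO rat 2 (-1.44, adjusted p = 0.0653). As in core, it is not independent evidence of the direction, since the study chose miR-210-5p from these same arrays.

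Within a rat, core minus peri of miR-210-5p was 0.04, -0.47 and -0.48 in the sham rats, -0.25, -0.39 and -1.49 in the tMCAO rats, and 1.24, -0.04 and 2.33 in the PostC rats. The tMCAO rats were thus all lower in core, and PostC rats 1 and 3 higher. None of the mean differences passed in limma: -0.30 in sham, -0.71 in tMCAO (adjusted p = 0.627) and 1.18 in PostC (standard error 0.41, adjusted p = 0.399). Without PostC rat 2 the PostC difference was 1.79 (adjusted p = 0.0457). The change between tMCAO and sham differed between core and peri by -0.41 (95% interval -1.72 to 0.91, adjusted p = 0.926), so a fall past the threshold in core but not in peri does not show that the regions differed. For PostC against tMCAO the regions differed by 1.89 (unadjusted p = 0.0101, adjusted p = 0.456, with no overlap of the rats, as for 9.96% of the miRNAs) and for PostC against sham by 1.48 (unadjusted p = 0.0313, adjusted p = 0.387). These latter tests were added after the values were seen.

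miR-210-3p, the arm usually taken as the working strand, gave a dimmer signal, with a median spot at 0.458 to 6.51 times the detection limit of its array (median 1.61), and showed no group that stood apart. Its normalized log2 intensity in core was 8.16, 6.82 and 8.17 in sham rats 1, 2 and 3, 7.78, 9.09 and 8.15 in tMCAO, and 9.70, 7.91 and 7.70 in PostC. In peri it was 8.39, 7.53 and 8.24 in sham, 8.22, 7.59 and 7.58 in tMCAO, and 7.53, 8.41 and 8.35 in PostC. The lowest array was sham core rat 2 and the highest PostC core rat 1, and every pair of neighbouring groups overlapped, from PostC core (8.44 ± 1.10, SD, n = 3) down through tMCAO core (8.34 ± 0.67), PostC peri (8.10 ± 0.49), sham peri (8.06 ± 0.46) and tMCAO peri (7.80 ± 0.36) to sham core (7.72 ± 0.78). It was detected on 12 of 18 arrays, namely all 6 sham arrays, 2 of 3 in tMCAO core, PostC core and PostC peri, and 0 of 3 in tMCAO peri. The median spot in tMCAO peri was 0.997, 0.538 and 0.458 of the limit in rats 1, 2 and 3, and the limits of rats 2 and 3 (346 and 338 units) were the highest of the 18 arrays after PostC core rat 2. Against a limit set from the 25% dimmest miRNA spots, the arm was detected on all 18 arrays. For tMCAO peri no fold is given, because miR-210-3p was not well above background there.

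**Figure D2:**
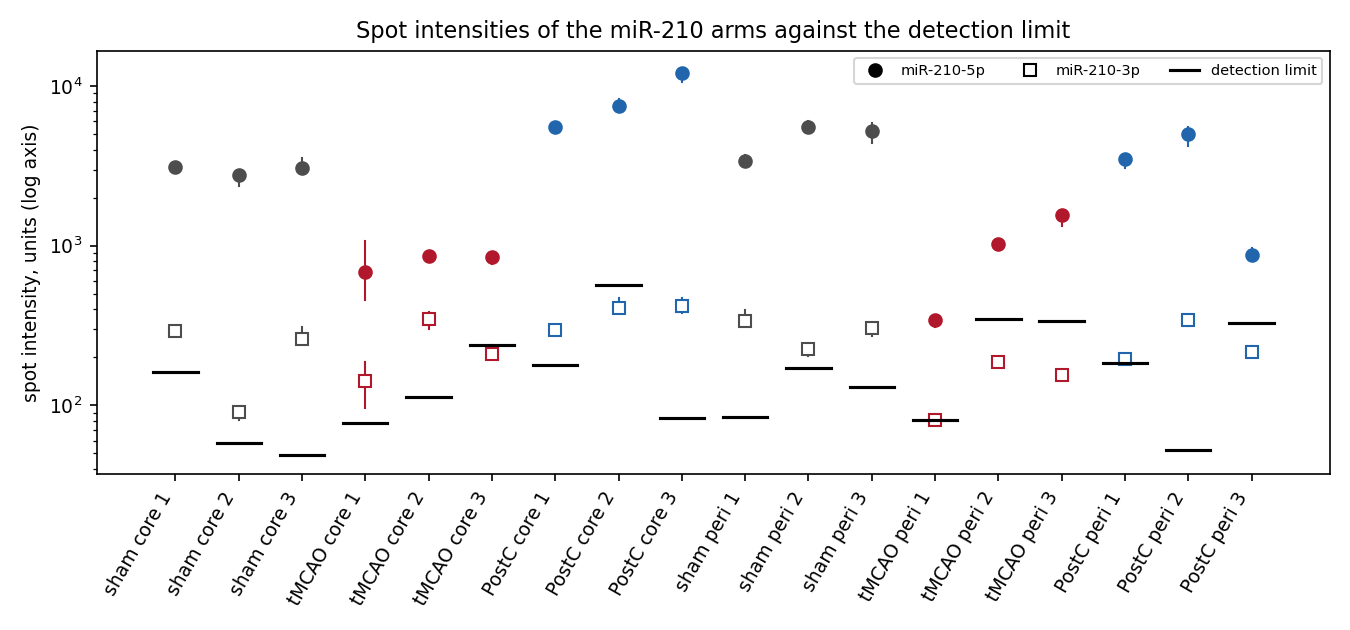
Median spot intensity of each arm on each of the 18 arrays (units, log axis) with the lowest and highest of the 4 spots as a line, and the detection limit of the array as a bar. miR-210-5p lies above the limit on all 18 arrays, by 2.67-fold in PostC peri rat 3 to 145-fold in PostC core rat 3, and miR-210-3p lies above it on 12 arrays, over 2-fold on 6 of them, by up to 6.51-fold in PostC peri rat 2.

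The spots of one probe bear on how exact each array's value is. Over the 4 spots of miR-210-5p the SD on the log2 scale was 0.50 on tMCAO core rat 1, where the spots ran from 458 to 1063 units, and between 0.03 and 0.18 on the other 17 arrays. For miR-210-3p it was 0.40 on the same array and between 0.05 and 0.16 on the others. tMCAO core rat 1 was thus the noisiest array for both arms, although its miR-210-5p value was close to those of the other tMCAO core rats.

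No comparison of miR-210-3p passed the threshold in limma. In core the differences were 0.62 between tMCAO and sham (95% interval -0.76 to 2.01, adjusted p = 0.550), 0.72 between PostC and sham (-0.67 to 2.10, adjusted p = 0.567) and 0.10 between PostC and tMCAO (-1.29 to 1.48, adjusted p = 0.971). miR-210-3p was not above the limit on 1 of the 3 arrays in tMCAO core and in PostC core, so these values rest in part on spots not above background. The interval for PostC against tMCAO holds changes of over 2-fold in either direction, so it does not show that the arm was steady. In peri PostC and sham differed by 0.04 (-0.71 to 0.79), and no difference from tMCAO is given because the arm was not above the limit on any of those arrays. In the rat means PostC and sham differed by 0.38. The interval for PostC against tMCAO in core ended at 1.48 for miR-210-3p and began at 2.03 for miR-210-5p. Set side by side, the intervals do not test whether the arms changed differently, for which their difference is used further on.

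**Figure D3:**
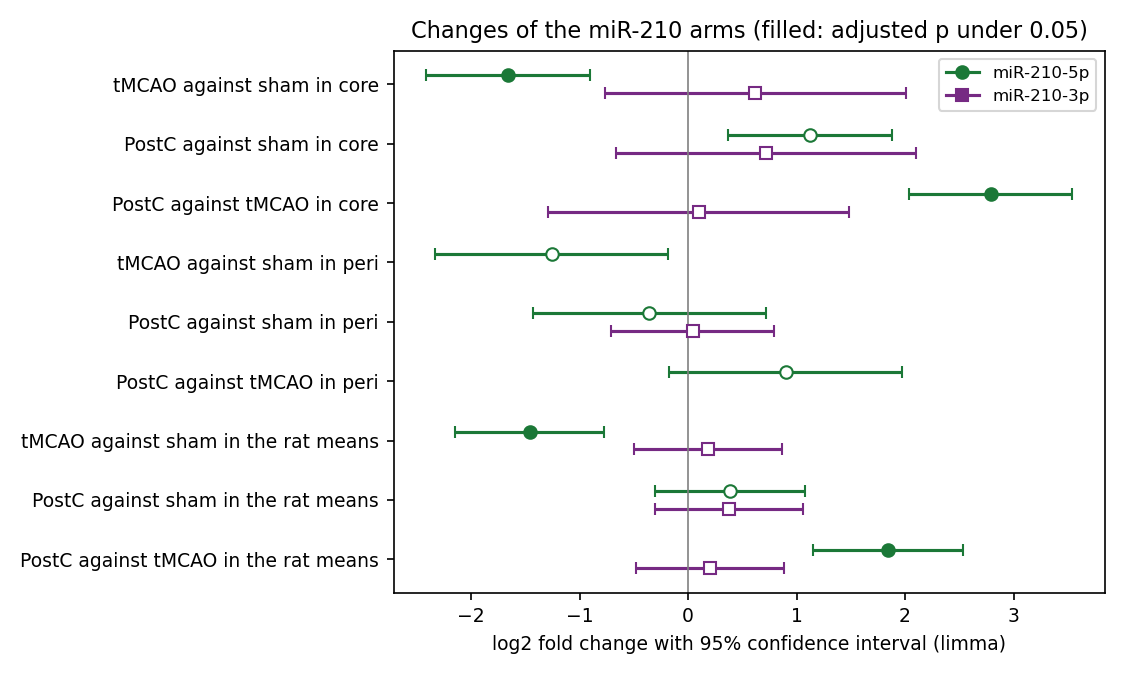
Log2 fold changes of both arms in up to 9 comparisons with 95% confidence intervals from limma, filled where the adjusted p was under 0.05. Only miR-210-5p has filled points, in tMCAO against sham and PostC against tMCAO, in core and in the rat means, and every interval drawn for miR-210-3p spans 0. miR-210-3p is not drawn for tMCAO in peri, where it was not above the limit, and those arrays enter its rat means.

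Whether the arms changed differently was tested on their difference, 3p minus 5p in log2, within each array. The levels of 2 probes cannot be set against each other, but the change of their difference between groups can be tested. In core the difference was -3.28, -4.57 and -3.23 in the sham rats, -1.90, -0.78 and -1.56 in the tMCAO rats, and -3.44, -4.09 and -4.77 in the PostC rats. The tMCAO rats stood apart from both other groups without overlap, and sham and PostC overlapped. Of these 9 arrays, miR-210-3p was not above the limit on tMCAO rat 3 and PostC rat 2. The difference moved by 2.28 between sham and tMCAO and by -2.69 between tMCAO and PostC (two-sided exact permutation test, p = 0.1 for each, the smallest that 3 rats against 3 allow, and 0.225 after Benjamini-Hochberg adjustment over 9 comparisons). Over all 3 groups in core the exact permutation test of the F statistic gave p = 0.0179 (of 1680 arrangements, smallest possible p = 0.00357), or 0.0536 after adjustment over 3 tests. In the rat means this exact test gave p = 0.0357, adjusted to 0.0536, and in peri p = 0.5, both with tMCAO peri arrays on which miR-210-3p was not above the limit. None of these passed 0.05 after adjustment. With plain subtraction of the background the permutation test of F in core gave p = 0.107.

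Across the arrays the arms did not run together: Pearson's r between them was 0.09 over the 18 arrays, 0.16 over the 9 core and -0.11 over the 9 peri arrays. By this measure miR-210-3p stood at place 226 of the tested miRNAs in likeness to miR-210-5p. The arrays share normalization and come in pairs from the same rat, so these values describe the arrays only. miR-210-3p was above the limit on 12 of the 18 arrays and on 0 of 3 in tMCAO peri. A low r therefore does not show that the arms were unrelated.

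The miRNA closest to miR-210-5p was miR-3574, the one whose target is the reverse complement of miR-210-3p. Its r was 0.96 over the 18 arrays with miR-210-5p and 0.11 with miR-210-3p. In core the normalized log2 intensity of miR-3574 was 9.92, 10.64 and 9.86 in the sham rats, 8.94, 9.22 and 8.83 in the tMCAO rats, and 11.83, 10.51 and 11.59 in the PostC rats. As for miR-210-5p, the 3 tMCAO rats were the lowest, and PostC rat 2 was the lowest of its group. miR-3574 rose by 2.32 from tMCAO to PostC in core (adjusted p = 0.0292 by limma, standard error 0.44), and differed by -1.14 between tMCAO and sham (standard error 0.44, adjusted p = 0.167). In peri it was lowest in PostC rat 3 of the PostC rats (8.84, against 10.69 and 10.89), the array on which miR-210-5p was lowest too and on which miR-3574 was not detected. Whether the 2 probes bind each other's target was not tested.

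After miR-3574 (deviations from the group means r = 0.90) came miR-568 (r = 0.94), miR-3591 (0.93), miR-187-5p (0.91) and miR-758-5p (0.91), with r of the deviations from the group means between 0.65 and 0.82. The median r over all tested miRNAs was -0.0028. In all 5 the mean was lowest in tMCAO core and highest in PostC core, which describes the pattern they were chosen for and is no further evidence of it. miR-568 and miR-758-5p were detected on 16 and 15 arrays, and miR-3591 and miR-187-5p on 12 each, so the tMCAO values of the last pair lie near background. The target of miR-3591 is also a reverse complement over its whole length of 20 bases, in its case of miR-122-5p, the liver miRNA.

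**Figure D4:**
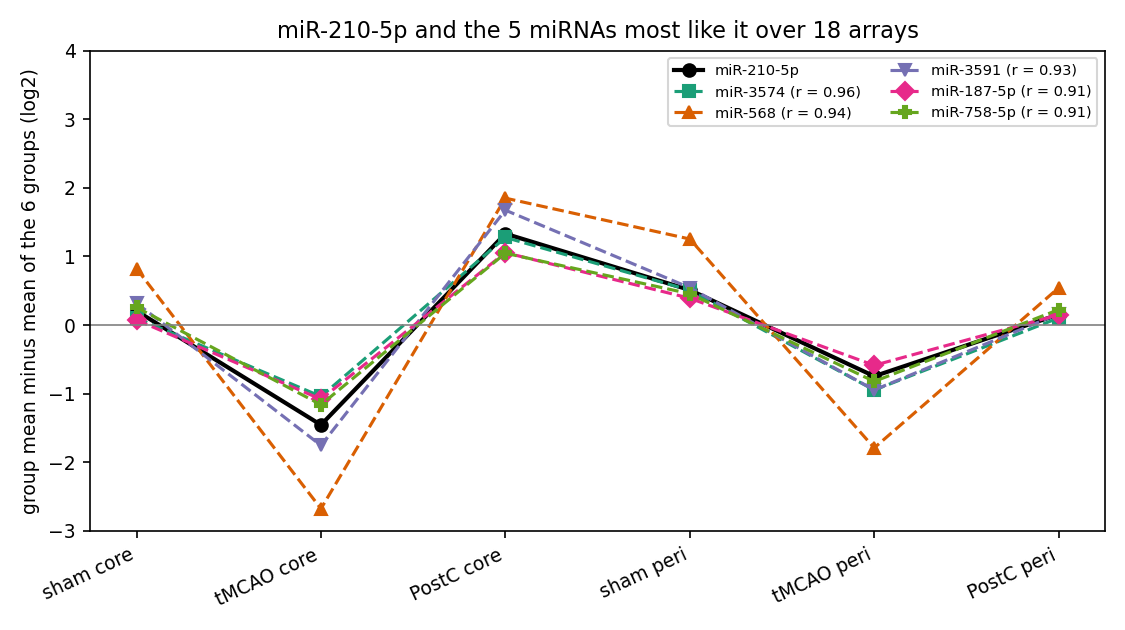
Group means (n = 3 rats) of miR-210-5p and of the 5 miRNAs with the highest correlation to it over the 18 arrays, each shown as the difference from its own mean over the 6 groups (log2). All 6 lines have their lowest point in tMCAO core and their highest in PostC core, as the choice by likeness favours; r is Pearson's, with miR-3574 at 0.96.

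The 6 sequences share letters. Each holds the run ACAC, in capitals in the lines that follow, which were searched as written from 5′ to 3′ and on no other strand.
miR-210-5p: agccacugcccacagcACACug
miR-3574: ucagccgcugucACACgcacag
miR-568: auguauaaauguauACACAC
miR-3591: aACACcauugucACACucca
miR-187-5p: aggcuacaACACaggacc
miR-758-5p: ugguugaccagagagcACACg
This run was chosen after the values were seen, so no test is given for it. It is found in 8.67% of the 761 targets and in 52 (9.77%) of the 532 tested. Of the 11 miRNAs called higher in PostC than in tMCAO core, 8 hold it: miR-210-5p, miR-568, miR-3591, miR-3574, miR-182, miR-187-5p, miR-3064-3p and miR-196c-3p. Of the tested miRNAs with the run, 15.4% were called in this comparison, and 0.833% of those without it. The run was taken from miR-210-5p and the 5 miRNAs chosen for the same pattern, and 5 of the 8 are among these 6. Of the other 46 with the run, 3 (6.52%) were called, and their median change was 0.40. The median change of the 52 was 0.46, of the 480 others -0.01, and of all tested 0.01. For the other comparisons only the 46 are set beside the 480. Between PostC and sham in core their medians were 0.36 and 0.03, and between tMCAO and sham in core -0.15 and -0.04, where the 46 turned to 0.02 with plain subtraction and with the GC trend removed. In peri they were 0.06 and 0.01 for PostC against tMCAO, -0.17 and -0.00032 for tMCAO against sham, and -0.03 and 0.04 for PostC against sham, the opposite order to core. Among the 207 runs of 4 letters held by at least 20 tested miRNAs, a high place of ACAC is favoured by the way it was chosen. With the 6 left out it stood at place 1 by median change between tMCAO and PostC in core, at place 2 between PostC and sham, after CACA (0.36), and at place 144 between tMCAO and sham. Leaving out the 6 does not undo the choice, because results of the other 46 on these arrays were known too. These places therefore describe the data and test nothing.

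**Figure D5:**
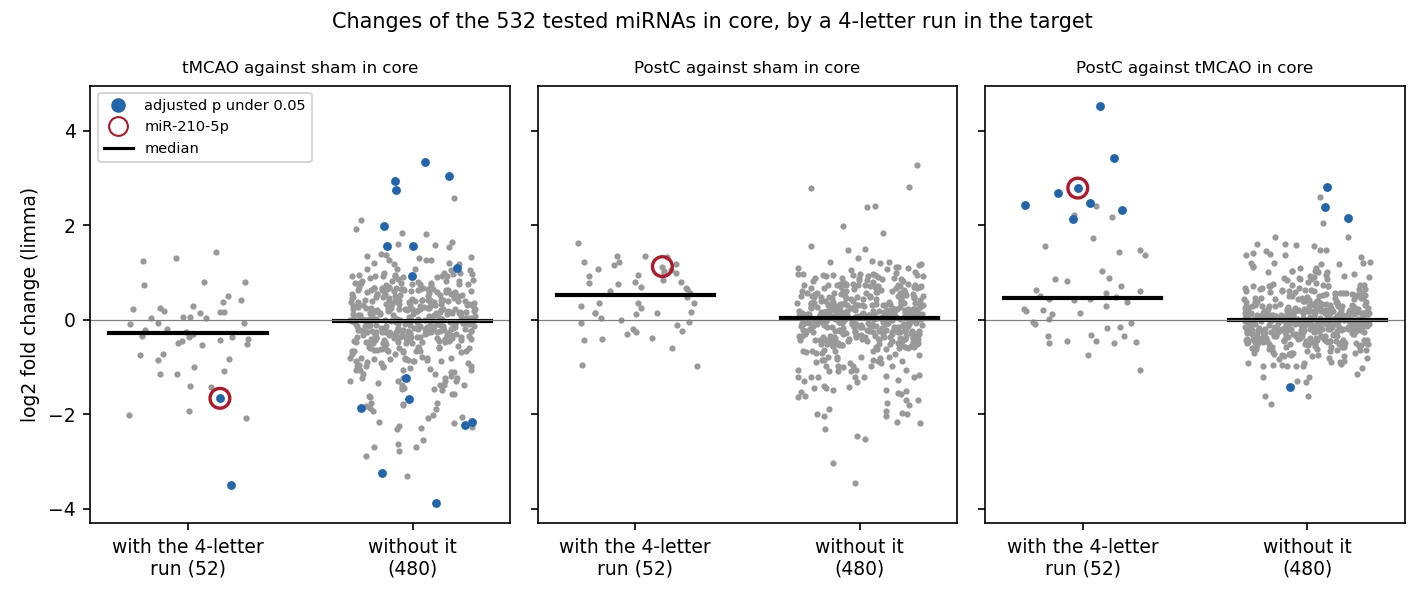
Log2 fold changes of the 532 tested miRNAs in the 3 core comparisons, for the 52 miRNAs whose target holds a 4-letter run shared by miR-210-5p and the 5 miRNAs most like it, and for the 480 others; bars are medians, blue points have an adjusted p under 0.05 and the ring marks miR-210-5p. In PostC against tMCAO 8 blue points above 0 fall on the left and 3 on the right, with medians of 0.46 and -0.01.

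Array by array, the median deviation of the other 46 miRNAs from their own means over the 18 arrays was -0.06, -0.29 and -0.12 in tMCAO core, 0.06, 0.07 and 0.55 in PostC core, and -0.17, 0.03 and -0.12 in sham core. PostC and tMCAO core did not overlap, and sham core spanned both signs. PostC rat 3 lay far above PostC rats 1 and 2. The 480 without the run had -0.06, -0.04 and -0.04 in tMCAO core and -0.06, -0.07 and -0.04 in PostC core. tMCAO core rat 1 thus had a like value in both sets. How often other sets of miRNAs separate these groups was not tested. For the 46, PostC peri rat 3, the array on which miR-210-5p was low, had -0.22, and PostC peri rats 1 and 2 had 0.07 and 0.08. The difference in PostC against tMCAO core between the 46 and the miRNAs without the run kept its direction in the authors' table (median 0.19 for the 46) and under the 4 other settings tried, with medians for the 46 between 0.18 and 0.52. Leaving out a rat gave medians for the 46 between 0.23, without PostC rat 3, and 0.42. The number called higher moved with single rats: 2 of 3 held the run without tMCAO rat 1, tMCAO rat 2 or PostC rat 3, 3 of 4 without tMCAO rat 3 or sham rat 1, 3 of 5 without sham rat 3, 3 of 8 without PostC rat 1, and 12 of 17 without sham rat 2. Without PostC rat 2 it was 8 of 11, as with all rats. The part of the run in the changes of miR-210-5p was not tested.

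Around miR-210-3p the picture was different. The 5 miRNAs closest to it were miR-324-3p (r = 0.93), miR-31a-5p (0.90), miR-181c-3p (0.89), miR-330-3p (0.88) and miR-345-5p (0.88). For them r of the deviations from the group means was between 0.91 and 0.95, higher in each than r over all arrays, so the likeness lay in differences between arrays of the same group. The median r over all tested miRNAs was -0.04.

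A list of 23 other miRNAs linked to hypoxia or its factors was set beside miR-210, all of them tested. Between tMCAO and sham in core 1 was higher, 0 lower and 22 did not pass, with a median change of 0.12 against -0.05 over all tested, of which 1.69% were called higher and 1.69% lower. In PostC against sham and PostC against tMCAO in core none passed, with medians of -0.29 and -0.03, where 0% and 2.26% of all tested did. In peri none passed, where 0.564% of all tested did between tMCAO and sham and 0% in the other pair of comparisons. In the rat means 1 was higher and 2 lower between tMCAO and sham, where 4.51% and 7.33% of all tested were called higher and lower. The one that rose was miR-155-5p, an inflammatory miRNA of immune cells that is also induced by hypoxia (adjusted p = 0.0318 in core by limma). It was not detected on any sham core array and was detected on 2 of 3 in tMCAO core. The mean of its 3 tMCAO core values was 2.08-fold above the mean of the lowest levels detected on the sham core arrays. Not all 3 values were above the limit, so this fold is not a strict lower bound. miR-155-5p was detected on 3 arrays in all, 2 of tMCAO core and 1 of PostC core, so it entered the test only through the groups in which it was high. The pair that fell was miR-181b-5p, with -1.61 in the rat means (standard error 0.43, adjusted p = 0.0356), and miR-181c-5p, with -2.29 (standard error 0.47, adjusted p = 0.0123), both brain-abundant members of the miR-181 family linked to the control of apoptosis and mitochondria. In core these were -2.17 and -2.78 and did not pass (adjusted p = 0.145 and 0.142). miR-181b-5p is also of the study's heat map.

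The summed normalized intensity of the 6 leukocyte miRNAs ran from 3297 to 4031 units in sham core, from 7592 to 12363 in tMCAO core and from 5968 to 8372 in PostC core. Of the 5 tested, miR-150-5p rose by 1.55 in log2 between sham and tMCAO in core (adjusted p = 0.0318 in limma), where 1.69% of all tested were called higher. It is also among the miRNAs that the study chose from these arrays, so its rise is not independent evidence of the direction. miR-155-5p is the same miRNA as in the hypoxia list, and entered the test only through groups in which it was high, so it adds no count here. The other 3 did not pass: miR-146a-5p differed by 0.96 (adjusted p = 0.152), miR-223-3p had an adjusted p of 0.308, and miR-142-5p, with an adjusted p of 0.401, went the other way, being detected on 2 of 3 arrays in sham core and 0 in tMCAO core. miR-142-3p, which was not tested, was detected on 1 of 3 arrays in sham core and on 0 in tMCAO core and PostC core. The summed intensity of the pair of oligodendrocyte miRNAs ran from 1936 to 12550 units in sham core, from 309 to 686 in tMCAO core and from 302 to 1426 in PostC core, with miR-219a-5p not detected in tMCAO core. Neither passed against sham in core: for miR-338-3p the difference was -3.32 in tMCAO (adjusted p = 0.0903) and -3.03 in PostC (adjusted p = 0.130), and for miR-219a-5p the adjusted p was 0.106 and 0.210. The 4 neuron miRNAs summed to between 71161 and 72124 units in sham core, 59749 and 65717 in tMCAO core, and 60791 and 78129 in PostC core, and none of the 4 passed in core. The 3 red blood cell miRNAs summed to between 2421 and 4272 units in sham core, 2967 and 4179 in tMCAO core, and 1511 and 1792 in PostC core, with miR-144-3p not detected in any of these groups. The endothelial pair summed to between 8342 and 15619 units in sham core, 3747 and 7364 in tMCAO core, and 4225 and 7436 in PostC core, and the smooth muscle pair to between 5847 and 9837, 8150 and 13154, and 7751 and 13810. None of these latter 3 lists had a member that passed in core. Between tMCAO and sham in core miR-126a-3p differed by -0.99 (adjusted p = 0.142 in limma). The other of the endothelial pair, miR-126a-5p, was detected on 0 of 3 arrays in tMCAO core, so the sum rests mostly on miR-126a-3p. miR-126 is also among the miRNAs that the study chose from these arrays, so this fall is not independent evidence of the direction.

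Compared by their ranges in core, leukocyte sums, set mostly by miR-150-5p, were above sham in both tMCAO and PostC. Oligodendrocyte and endothelial sums were below sham in both. Neuron sums were below sham in tMCAO and overlapped sham in PostC, but the members were mixed. Between tMCAO and sham in core miR-9a-5p differed by -1.89 and miR-124-3p by -0.21, against 0.34 for miR-128-3p and 0.41 for miR-138-5p. Red blood cell sums were below both other groups in PostC. There miR-451-5p differed from sham by -1.22 and miR-486 by 1.00, in opposite directions. Smooth muscle sums overlapped in all 3 groups. In the rat means between sham and tMCAO, 4.51% of all tested were called higher and 7.33% lower. Of the 4 neuron miRNAs there, miR-9a-5p fell by 1.20 (adjusted p = 0.0350 in limma) and the others did not pass: miR-128-3p differed by 0.44 (adjusted p = 0.0668), miR-138-5p by 0.06 and miR-124-3p by -0.01, and the median of the 4 was 0.02. The leukocyte miRNA miR-150-5p rose by 0.92 (adjusted p = 0.0298). Of the red blood cell miRNAs, miR-451-5p, detected on all 18 arrays, differed by 0.14 (adjusted p = 0.809), and miR-486 passed (1.39, adjusted p = 0.00951) but was detected on 9 arrays only and on none in tMCAO peri. The sums themselves were not tested. The part of these cells in the miR-210 values was not tested.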

How the data were processed

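miRNA levels in rat brain were measured on 18 single-colour (Cy5) LC Sciences arrays of RNA from 9 rats. For every spot the authors deposited its median pixel intensity, neither background-subtracted nor normalized, and a table of background-subtracted intensities normalized by locally weighted regression. RNA was labelled through a tail added to its 3′ end. The labels name a miRNeasy kit for extraction and the paper Trizol.

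Background was corrected here with normexp (offset 50), log2 values were normalized by cyclic loess with control spots at weight 0, and the 4 spots of a probe were averaged. A probe counted as detected above the median of the 612 empty spots plus 3 scaled median absolute deviations, and the 532 of 761 detected on at least 3 arrays were tested with limma 3.58.1 in R 4.3.3 (variance trend, Benjamini-Hochberg over the 532, threshold 0.05). Core, peri, rat means and core minus peri were fitted apart, with the 3 groups sharing a spread and the rat as the replicate. Because of the normalization, changes are relative to the other miRNAs. The number of arrays limits the precision, and intensities give no counting interval. The fit was tested on simulated data. Sequences are the array files' own, compared with edlib 1.3.9.post1 in Python 3.11.15, and no genomic position is given.

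Named are both arms, the 5 miRNAs most like each by Pearson's r, miRNAs nearest in sequence, and those of the hypoxia list past the threshold against sham. Also named are the cell type miRNAs, those with the 4-letter run called higher in PostC than in tMCAO core, and miR-122-5p as a reverse complement. The members, lists and the 4-letter run were chosen with results of these data known. The alternatives were other backgrounds, normalizations, filters, tests and blocks, the authors' table and leaving out each rat. The authors' spreadsheets of other assays were not used here.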

Additional observations from a re-analysis of the deposited data

How the results depend on the processing

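For miR-210-5p the rise from tMCAO to PostC in core kept its direction under all 14 alternatives, between 2.48 and 2.92, and passed in 13, the exception being the methods' t-test (2.79, adjusted p = 0.152). The fall from sham to tMCAO in core kept its direction in all 14, between -2.15 and -1.35, and did not pass with plain subtraction (-1.67, adjusted p = 0.118), quantile normalization (-1.35, adjusted p = 0.0645) or the replicate number as a block (-1.66, adjusted p = 0.0888). With each rat left out it ran from -1.72 to -1.62 and passed only in the 3 of 9 that left out a PostC rat. In the rat means the fall passed in all 14 alternatives, and with a rat left out ran from -1.63 to -1.31, not passing without tMCAO rats 1 and 2. The rise to PostC in the rat means did not pass by the methods' t-test (1.84, adjusted p = 0.148). In peri the tMCAO and sham difference passed with median scaling (-2.31, adjusted p = 0.0239), a scaling that moved the median of all tested miRNAs in that comparison by -0.41. With each rat left out it ran from -1.63 to -0.99 there, PostC against tMCAO in peri from 0.56 to 1.51, and core against peri in PostC from 0.60 to 1.79. The difference between core and peri of the tMCAO and sham change kept its direction in 13 of 14 alternatives and ran from -0.80 to 0.60. No comparison of miR-210-3p passed in any alternative, and detection on all 18 arrays gives no value for it. In core its tMCAO and sham difference ran from 0.13 to 1.63 over the alternatives and from 0.17 to 0.90 with a rat left out. Its PostC and sham difference ran from 0.36 to 2.44 and from 0.09 to 1.09. PostC against tMCAO ran from 0.01 to 0.81 and, with a rat left out, from -0.53 to 0.47, so its sign turned.

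For the difference of the arms, plain subtraction gave changes of 3.30 between sham and tMCAO and 1.22 between sham and PostC in core, -0.00364 between sham and tMCAO and 0.81 between tMCAO and PostC in peri (where miR-210-3p was not above the limit in tMCAO), and 1.01 between sham and PostC and -0.63 between tMCAO and PostC in the rat means. Its exact permutation p over the 3 groups was then 0.107 in core and 0.139 in the rat means. In the rat means leaving out a rat gave an exact permutation p from 0.0179 to 0.05. The cause of these moves was not tested.

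The replicate numbers do not pair the rats: same-numbered rats of different groups deviated from their group means with correlations between -0.51 and 0.46. The number as a block changed the call only in tMCAO against sham in core, given here. miR-210-3p was not above the detection limit on 6 of the 18 arrays, which limits what can be seen of that arm.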
